A study of Homo sapiens with 7 samples.

Results

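The 41 genes described here encode the anaphase promoting complex (APC/C) and the SCF ubiquitin ligases. They also encode the kinases and phosphatases that drive entry into and exit from mitosis. They were taken as a named list of symbols, and each of the 41 matched 1 of the 60675 Ensembl gene identifiers in the table. RNA was sequenced from MDA-MB 231, a triple-negative line of human breast cancer cells labelled wild type for DEPDC1, 2 days after lipid transfection with siRNA against DEPDC1 (siDEPDC1, 4 libraries) or with control siRNA (siCTL, 3 libraries). Both groups received the same transfection reagent and medium, which was changed after 8 h. An siRNA directs cleavage of the transcript it pairs with; the labels give neither its sequence nor whether it was a pool. They do not tie the replicates to separate cultures either, so every p-value below measures spread among libraries that may be technical.

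The APC/C is a ubiquitin ligase that marks securin and cyclin B for destruction, which lets chromosomes separate and mitosis end. It is switched on by CDC20 in mitosis and by FZR1 from late mitosis into G1. Before that, CDK1 is held back by WEE1 and PKMYT1 and released by CDC25 phosphatases, PLK1 and Aurora A push the cell into mitosis, and Greatwall (MASTL) keeps the opposing phosphatase PP2A-B55 silent. SCF ligases, built on CUL1 with an exchangeable F-box protein, destroy several of these regulators, and many of the genes are transcribed mainly in G2 and mitosis of dividing cells such as this line.

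Libraries held 7690583 to 13483305 counts in siDEPDC1 and 11704246 to 15360409 counts in siCTL. Levels are given as CPM, a gene's counts scaled to the library's counts in tested genes with TMM factors (which correct for composition), and 1 count was worth 0.0656 to 0.130 CPM. DEPDC1 itself was at 15.3, 12.7, 13.4 and 11.9 CPM in siDEPDC1 and 114, 119 and 120 CPM in siCTL. The line's mesenchymal marker VIM averaged 3671 CPM in siDEPDC1 and 3713 CPM in siCTL. EGFR, typical of such lines, was lower (462 CPM in siDEPDC1 and 562 CPM in siCTL, edgeR adjusted p = 0.00018), as was the epithelial gene CDH1 at very low levels (0.37 CPM in siDEPDC1 and 1.11 CPM in siCTL, edgeR adjusted p = 0.0030), and the hormone receptor genes ESR1 and PGR stayed under 0.5 CPM in both group means. ERBB2 was detected, at 66.0 and 64.5 CPM in siDEPDC1 and siCTL. Among the markers of other cell types, PECAM1 (11.3 CPM in siDEPDC1 and 12.9 CPM in siCTL) and EPCAM (11.6 CPM in siDEPDC1 and 10.4 CPM in siCTL) had the highest means.

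All 41 genes passed the count filter, with at least 63 counts in every library. After DEPDC1 siRNA 14 were higher and 8 lower at an adjusted p under 0.05 (edgeR quasi-likelihood test, adjusted over the 16583 tested genes), and 19 did not pass. That is 53.7% of the 41, beside 34.4% of all tested genes (16.5% higher and 17.9% lower). The libraries of the groups did not overlap, as higher, for 13 of the 41 and, as lower, for 8, where 37.3% of all tested genes did not overlap (17.7% higher and 19.6% lower). The shifts were small: log2 fold changes (siDEPDC1 over siCTL) ran from -0.38 to 0.39, with a median of 0.048 against 0.00094 over all tested genes. Together the 41 genes took 0.422, 0.437, 0.443 and 0.423% of counts in siDEPDC1 and 0.382, 0.393 and 0.380% in siCTL. In RNA from a whole culture, a changed share of cells in G2 or mitosis and a changed amount of RNA per cell cannot be told apart.

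**Figure D1:**
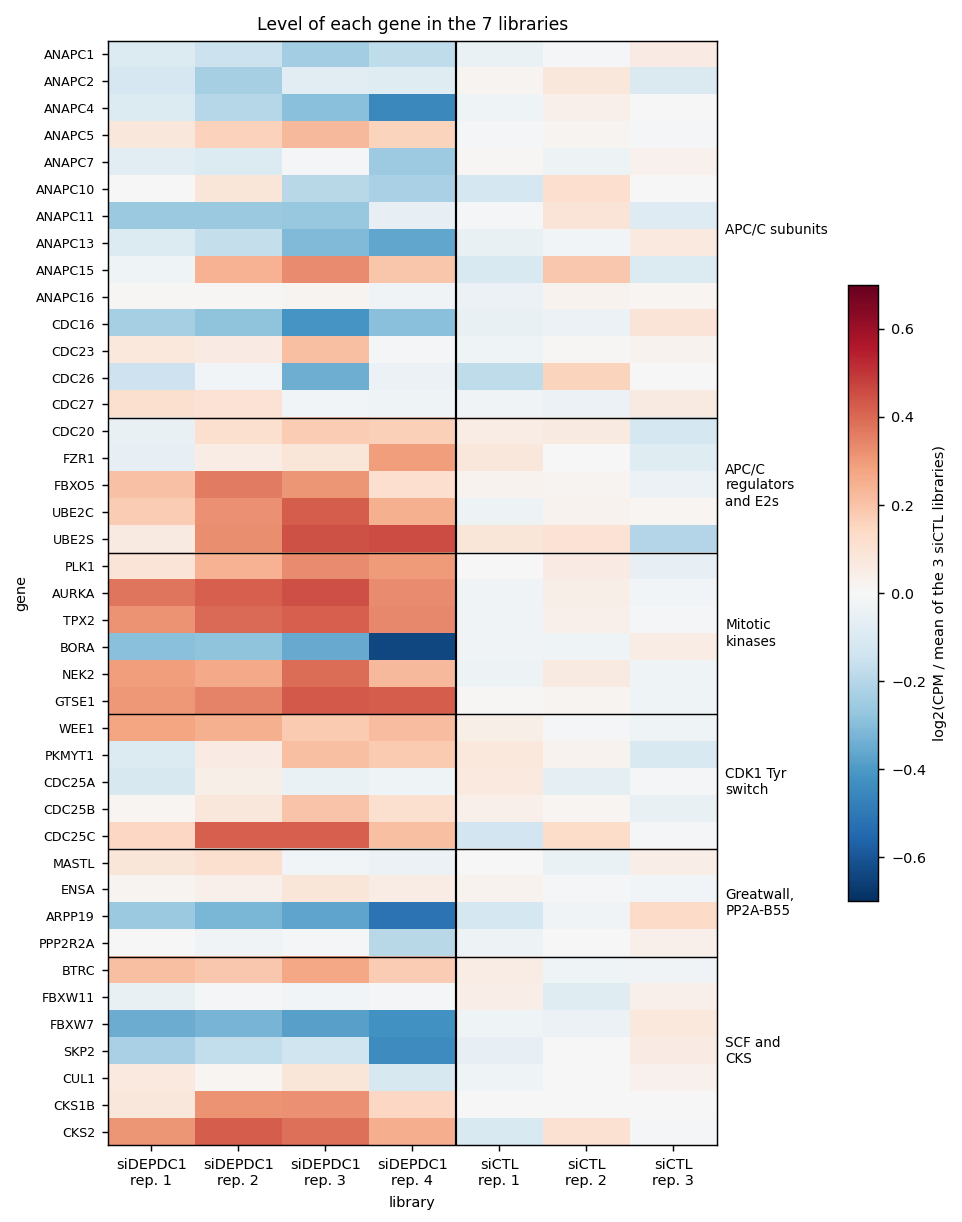
Level of each of the 41 genes (rows, grouped by role) in the 4 siDEPDC1 and 3 siCTL libraries (columns), as log2 of CPM over the mean of the siCTL libraries. AURKA and its activator TPX2 are red in all 4 siDEPDC1 libraries, while BORA, ARPP19, FBXW7 and CDC16 are blue in all 4.

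A promoter feature known from textbooks of the cell cycle is shown first. The cell cycle genes homology region (CHR, letters TTTGAA or TTTAAA) lies close to the start of many G2 and mitosis genes, often downstream of CCAAT boxes. Promoter sequence was found in RefSeq (GRCh38.p14) for 34 of the 41 genes; UBE2C, AURKA, TPX2, WEE1, PKMYT1, PPP2R2A and BTRC had no entry. Within 80 bases before an annotated start, a window set after seeing where the letters fell, TTTGAA or TTTAAA on either strand was present in 8 of 63 promoters (12.7%) and 8 genes, against 6.59% of all 35116 promoters. In the full 300-base promoters it was present in 18 of 63 (28.6%), near the 24% of all. CCAAT on either strand was in 14.7% of all 80-base windows and in 19 of the 63 here (30.2%), from 16 genes. Among these 16, ANAPC11 and BORA fell, CDC20, CDC23, CDC25A, CDC25B, CUL1 and ENSA did not pass, and the others rose. Of the genes with an entry, 6 of 9 that rose, 1 of 8 that fell and 1 of 17 that did not pass had TTTGAA or TTTAAA in the short window. In the full promoters the counts were 6 of 9, 3 of 8 and 8 of 17, so the contrast with the genes that did not pass was mostly that of the short window chosen afterwards. The windows are given on the gene's strand, with capitals for the CHR letters and for CCAAT on either strand. The last base of each is the base before the start.
PLK1 (chr16:23678809-23678888, plus strand, rose): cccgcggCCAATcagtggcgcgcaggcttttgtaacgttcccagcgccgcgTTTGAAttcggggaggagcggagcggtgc
CDC25C (chr5:138331805-138331884, minus strand, rose): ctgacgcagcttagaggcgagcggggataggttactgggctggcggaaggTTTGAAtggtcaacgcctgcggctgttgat
GTSE1 (chr22:46296790-46296869, plus strand, rose): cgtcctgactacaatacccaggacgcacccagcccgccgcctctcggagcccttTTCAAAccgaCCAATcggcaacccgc
CKS1B (chr1:154974601-154974680, plus strand, rose): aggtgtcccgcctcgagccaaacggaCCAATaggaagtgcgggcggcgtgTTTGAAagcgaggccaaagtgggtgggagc
CKS2 (chr9:89311115-89311194, plus strand, rose): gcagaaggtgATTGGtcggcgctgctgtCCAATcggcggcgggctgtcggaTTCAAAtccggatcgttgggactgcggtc
FBXO5 (chr6:152983042-152983121, minus strand, rose): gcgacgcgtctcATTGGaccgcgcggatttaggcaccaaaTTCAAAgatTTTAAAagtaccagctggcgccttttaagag
CDC20 (chr1:43358901-43358980, plus strand, did not pass): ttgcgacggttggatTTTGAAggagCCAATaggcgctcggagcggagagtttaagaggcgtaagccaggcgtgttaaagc
In PLK1, CDC25C, GTSE1, CKS1B and CKS2 the element began between positions -30 and -26, and in CDC20 at -65. ARPP19, which fell, had TTTGAA at -16 of 1 of its annotated starts. ANAPC5, NEK2 and UBE2S rose without the letters in this window. A match of letters is a description, and binding was not measured here.

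Subunits of the APC/C itself mostly fell or did not pass. Of 14 genes, 1 was higher and 4 lower, and the median log2 fold change was -0.12, with a median size of 0.14 against 0.19 over all tested genes. That is 35.7% called, close to the 34.4% of all tested genes. CDC16, one of the arch subunits built from TPR repeats, fell to 59.7, 57.6, 52.5 and 57.2 CPM in siDEPDC1, against 67.6, 67.9 and 74.5 CPM in siCTL. Every siDEPDC1 library lay below every siCTL library, and the log2 fold change was -0.30 ± 0.065 (SE; edgeR adjusted p = 0.00044). The call held in every alternative tried.

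ANAPC4, part of the platform that joins the arch to the catalytic arm, was at 34.6, 32.3, 30.2 and 27.1 CPM in siDEPDC1 and 36.2, 37.9 and 37.0 CPM in siCTL, again without overlap (log2 fold change -0.25 ± 0.078, edgeR adjusted p = 0.011). ANAPC13, a small subunit that steadies the arch, was at 23.1, 21.9, 19.9 and 19.2 CPM in siDEPDC1, against 23.8, 24.4 and 25.8 CPM in siCTL (-0.22 ± 0.083, edgeR adjusted p = 0.036). ANAPC11, the RING subunit that holds the E2 enzyme, was at 49.3, 49.4, 49.2 and 56.8 CPM in siDEPDC1, against 58.7, 62.9 and 55.6 CPM in siCTL, so that siDEPDC1 replicate 4 lay among the controls (-0.21 ± 0.069, edgeR adjusted p = 0.018). These calls depended on single libraries. ANAPC4 missed the threshold without siDEPDC1 replicate 4 (edgeR adjusted p = 0.053). ANAPC11 missed it without siDEPDC1 replicate 2 (0.073), siDEPDC1 replicate 3 (0.064) or siCTL replicate 2 (0.14). ANAPC13 missed it without siDEPDC1 replicate 3 (0.098), siDEPDC1 replicate 4 (0.12) or siCTL replicates 1, 2 or 3 (0.056, 0.079 and 0.12). ANAPC11 shares 62 exonic bases with ALYREF on the opposite strand, which rose (0.29, edgeR adjusted p = 0.00065), and 247 with NPB on its own strand. The labels do not state whether counting used strand, so shared reads cannot be told apart.

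ANAPC5, another platform subunit, was the 1 subunit that rose, with a mean of 208 ± 8.82 CPM in siDEPDC1 and 186 ± 1.93 CPM in siCTL (SD, n = 4 and 3). Its log2 fold change was 0.16 ± 0.054 (edgeR adjusted p = 0.025), a call lost without siDEPDC1 replicates 2 or 3 (edgeR adjusted p = 0.051 and 0.087) or without siCTL replicates 1, 2 or 3 (0.089, 0.070 and 0.068). The scaffold ANAPC1 had no overlap between groups but did not pass (40.0 ± 1.74 CPM in siDEPDC1, 44.9 ± 1.59 CPM in siCTL, edgeR adjusted p = 0.067). It passed without siDEPDC1 replicate 1 (edgeR adjusted p = 0.040). ANAPC15, which helps the complex shed the mitotic checkpoint complex, did not pass (0.18 ± 0.089 on the log2 scale, edgeR adjusted p = 0.11). Without siDEPDC1 replicate 1 or siCTL replicate 2 it passed, as higher (edgeR adjusted p = 0.022 and 0.029). ANAPC15 shares 780 exonic bases with each of LRTOMT and AP000812.5 on the opposite strand.

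The remaining 7 subunits did not pass. They are the cullin subunit ANAPC2 (-0.13), the substrate-binding subunit ANAPC10 (-0.070), the TPR subunits ANAPC7 (-0.11), CDC23 (0.081) and CDC27 (0.045), and the small subunits CDC26 (-0.12) and ANAPC16 (0.0029), as log2 fold changes. ANAPC10 and CDC26 were the lowest of the 14, at 8.89 and 9.96 CPM in siDEPDC1 and 9.39 and 10.9 CPM in siCTL. ANAPC10 shares 1020 exonic bases with AC098588.1 on its own strand. On the opposite strand it shares 469 with ABCE1, which fell (-0.20, edgeR adjusted p = 0.010). CDC26 shares 208 with PRPF4 on the opposite strand, which fell (-0.21, edgeR adjusted p = 0.0048). Whether shared reads lowered these 2 counts was not tested. Per kilobase of 1 annotated transcript per gene, subunit levels spanned 4.85 to 82.6 CPM per kb in siDEPDC1 and 5.44 to 74.1 CPM per kb in siCTL, with ANAPC1 lowest and ANAPC5 highest in both groups. CDC23 overlaps KIF20A on the opposite strand by 68 exonic bases, and KIF20A rose by 0.56 on the log2 scale. CDC27 shares its name with 3 annotated pseudogenes that could take some of its reads.

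Around this core, the enzymes and the inhibitor that work with the APC/C rose, while its activators did not pass the test. UBE2C, the E2 enzyme that starts ubiquitin chains on APC/C substrates, rose to 175, 194, 209 and 185 CPM in siDEPDC1, against 152, 158 and 157 CPM in siCTL. The groups did not overlap, and the log2 fold change was 0.29 ± 0.059 (edgeR adjusted p = 0.00016). UBE2S, the E2 that lengthens those chains, was at 184, 220, 240 and 242 CPM in siDEPDC1, against 186, 189 and 153 CPM in siCTL. Here siDEPDC1 replicate 1 lay within the siCTL range (0.33 ± 0.090, edgeR adjusted p = 0.0097), and the call was lost without siDEPDC1 replicate 4 (edgeR adjusted p = 0.053).

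FBXO5 (EMI1), which blocks the APC/C until mitosis, was at 44.5, 49.6, 47.8 and 41.8 CPM in siDEPDC1, against 39.2, 39.1 and 37.4 CPM in siCTL. All 4 siDEPDC1 values exceeded the siCTL values (0.25 ± 0.072, edgeR adjusted p = 0.0068). The mitotic activator CDC20 was at 248, 278, 291 and 289 CPM in siDEPDC1, against 267, 269 and 236 CPM in siCTL, and the groups overlapped (0.10 ± 0.060, edgeR adjusted p = 0.19). Without siDEPDC1 replicate 1 CDC20 passed, at 0.15 (edgeR adjusted p = 0.025). FZR1, the activator of late mitosis and G1, was at 58.3, 62.8, 64.5 and 74.4 CPM in siDEPDC1, against 64.2, 60.7 and 57.2 CPM in siCTL (0.099 ± 0.071, edgeR adjusted p = 0.30). Within each library CDC20 exceeded FZR1 by a log2 count ratio of 2.09 ± 0.096 in siDEPDC1 and 2.08 ± 0.055 in siCTL (SD), not scaled for length.

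**Figure D2:**
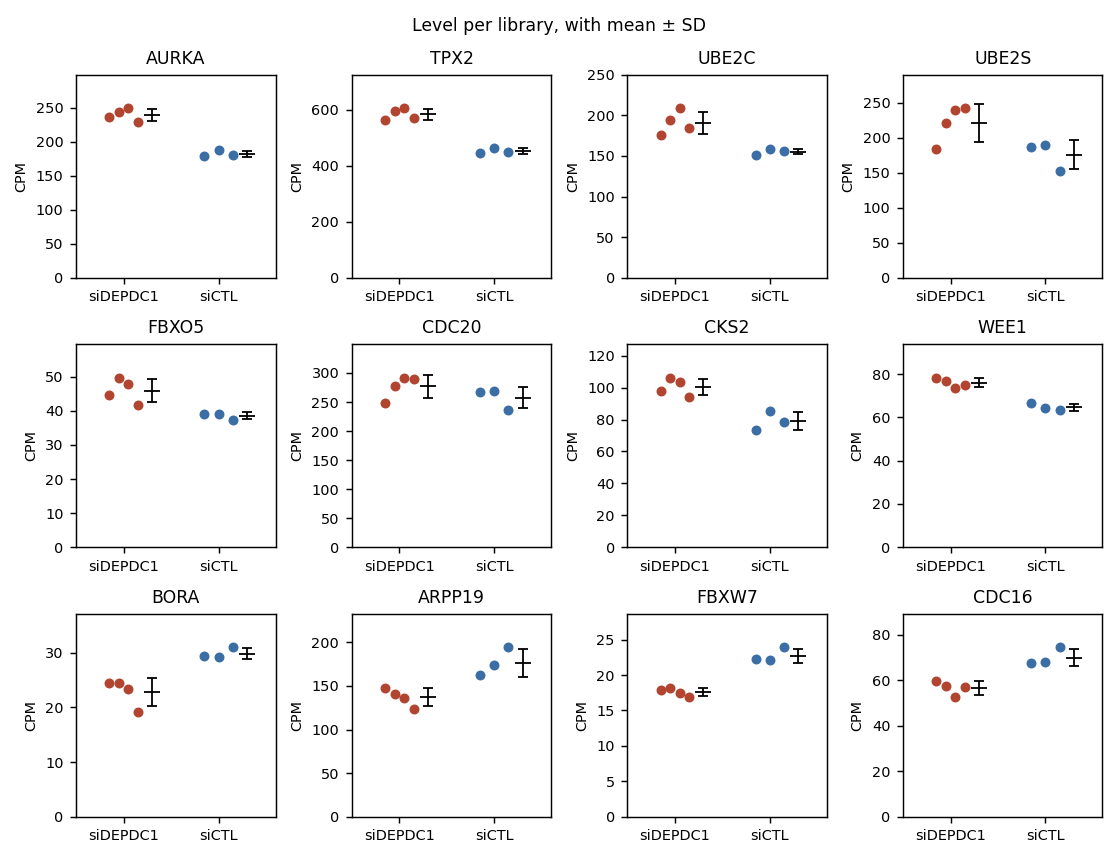
CPM of 12 genes in each siDEPDC1 library (red) and siCTL library (blue), with the group mean ± SD in black and every axis starting at 0. The groups are apart for AURKA, TPX2, UBE2C, FBXO5, CKS2, WEE1, BORA, ARPP19, FBXW7 and CDC16 and overlap for UBE2S and CDC20.

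All 6 mitotic kinase genes and partners passed the test, 5 higher and BORA lower, beside 34.4% of all tested genes. AURKA, the Aurora A kinase of centrosomes and spindle poles, rose to 236, 243, 249 and 229 CPM in siDEPDC1, against 179, 187 and 180 CPM in siCTL. With a log2 fold change of 0.39 ± 0.054 it had the smallest adjusted p of the 41 genes (edgeR adjusted p = 5.5e-07). TPX2, the spindle protein that activates Aurora A, rose to 562, 593, 604 and 570 CPM in siDEPDC1, against 444, 463 and 447 CPM in siCTL (0.37 ± 0.054, edgeR adjusted p = 1.5e-06). Both genes were raised by a similar amount in every siDEPDC1 library. Their within-library ratio moved by only 0.026 on the log2 scale (exact two-sided permutation p = 0.20).

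BORA, which with Aurora A switches on PLK1, went the other way. It was at 24.4, 24.5, 23.3 and 19.2 CPM in siDEPDC1, against 29.3, 29.1 and 30.9 CPM in siCTL. The groups did not overlap, and the log2 fold change of -0.38 ± 0.084 (edgeR adjusted p = 0.00048) was the lowest of the 41 genes and held in every alternative tried. BORA shares 1180 exonic bases with DIS3 on the opposite strand, whose own change did not pass (-0.13, edgeR adjusted p = 0.12). PLK1, the kinase that BORA and Aurora A activate, was at 166, 184, 196 and 191 CPM in siDEPDC1, against 155, 162 and 149 CPM in siCTL (0.24 ± 0.059, edgeR adjusted p = 0.0016). Its lowest siDEPDC1 library lay just above its highest siCTL library. The antisense gene AC008870.3, which shares 553 exonic bases with PLK1, also rose (0.29, edgeR adjusted p = 0.0033), and the reads of both cannot be told apart without strand.

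NEK2, a kinase that splits the centrosomes before mitosis, rose to 71.4, 70.0, 76.3 and 68.2 CPM in siDEPDC1, against 56.9, 60.9 and 57.2 CPM in siCTL (0.29 ± 0.063, edgeR adjusted p = 0.00049). GTSE1, a microtubule-binding protein of G2 and mitosis, rose to 104, 107, 113 and 113 CPM in siDEPDC1, against 84.4, 85.1 and 82.4 CPM in siCTL (0.38 ± 0.059, edgeR adjusted p = 4.3e-06). Neither gene's groups overlapped. Of the 41 genes, 11 were listed here as peaking in G2 and mitosis. Among these, AURKA, TPX2, PLK1, NEK2, GTSE1, UBE2C, CDC25C and CKS2 were higher, BORA was lower, and CDC20 and CDC25B did not pass. That is 8 higher and 1 lower, beside 16.5% higher and 17.9% lower of all tested genes, with a median log2 fold change of 0.29. The other 30 had 6 higher and 7 lower and a median of -0.010. The list of 11 was drawn up with earlier results of these data known, so this contrast is a description only.

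**Figure D3:**
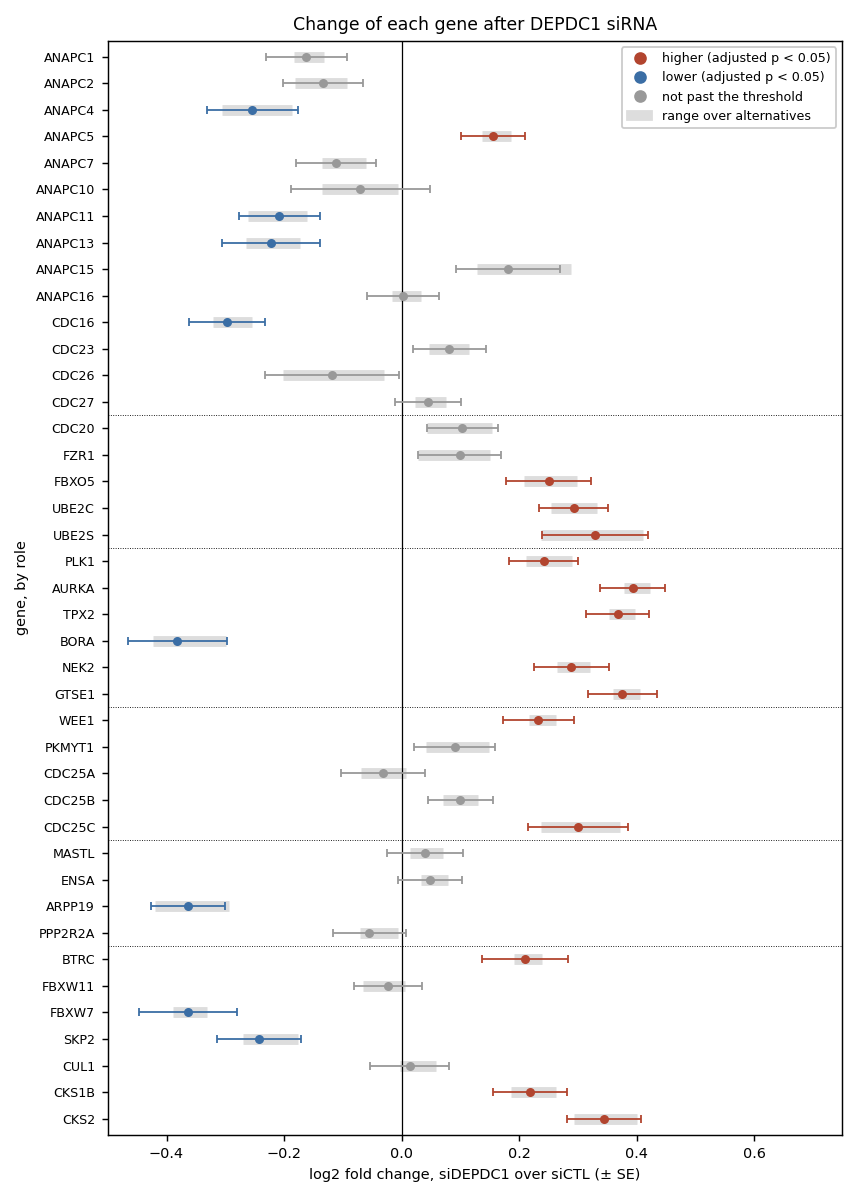
Log2 fold change (siDEPDC1 over siCTL) of each gene, ordered by role, with its standard error. Grey bars give the range over 15 alternative settings, which include a repeated fit. Red and blue points passed the test as higher and lower; AURKA (0.39) and BORA (-0.38) are the extremes.

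Of 5 enzymes that set the inhibitory phosphorylation of CDK1, 1 kinase and 1 phosphatase rose. That is 40% called, near the 34.4% of all tested genes. WEE1, the nuclear kinase that restrains CDK1, was at 78.3, 77.0, 73.6 and 75.1 CPM in siDEPDC1, against 66.5, 64.3 and 63.2 CPM in siCTL, without overlap (0.23 ± 0.060, edgeR adjusted p = 0.0027). CDC25C, a phosphatase that removes this phosphorylation, was at 26.3, 31.9, 31.9 and 27.6 CPM in siDEPDC1, against 21.7, 26.1 and 23.7 CPM in siCTL. Its lowest siDEPDC1 value was barely above its highest siCTL value (0.30 ± 0.085, edgeR adjusted p = 0.0060). The CDC25C call was lost without siCTL replicate 1 (edgeR adjusted p = 0.061). PKMYT1, the membrane-bound counterpart of WEE1, did not pass, at 0.090 ± 0.070 on the log2 scale. It shares 1233 exonic bases with PAQR4 on the opposite strand. CDC25A and CDC25B were at -0.032 and 0.10 and did not pass, although CDC25B did without siDEPDC1 replicate 1 (0.13, edgeR adjusted p = 0.048). CDC25B was the most abundant of the 3 phosphatase genes per kilobase, at 73.8 CPM per kb in siDEPDC1 and 68.8 in siCTL, against 13.8 and 11.2 for CDC25C.

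In the Greatwall pathway, ARPP19 alone of 4 genes passed the test (25% called, below the 34.4% of all tested genes). Greatwall phosphorylates the small paralogous proteins ENSA and ARPP19, which then inhibit PP2A with its B55 subunit. ARPP19 fell to 147, 141, 137 and 124 CPM in siDEPDC1, against 162, 174 and 194 CPM in siCTL. The groups did not overlap (-0.36 ± 0.063, edgeR adjusted p = 2.4e-05). ENSA was at 149 ± 2.89 CPM in siDEPDC1 and 144 ± 2.38 CPM in siCTL (SD) and did not pass (0.048 on the log2 scale). MASTL (0.040) and the B55 subunit gene PPP2R2A (-0.055) did not pass either. MASTL shares 443 exonic bases with YME1L1 on the opposite strand, which fell (-0.26, edgeR adjusted p = 0.00050).

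The SCF genes moved in both directions. FBXW7, the F-box protein for cyclin E and MYC, fell to 17.9, 18.1, 17.5 and 16.9 CPM in siDEPDC1, against 22.2, 22.1 and 23.9 CPM in siCTL (-0.36 ± 0.083, edgeR adjusted p = 0.00078). SKP2, the F-box protein for the CDK inhibitor CDKN1B, was at 46.6, 48.4, 49.5 and 40.2 CPM in siDEPDC1, against 52.4, 54.5 and 56.7 CPM in siCTL (-0.24 ± 0.072, edgeR adjusted p = 0.0078). For both, all siDEPDC1 libraries were below all siCTL libraries. BTRC, whose protein targets WEE1, CDC25A and FBXO5, rose to 33.6, 33.1, 35.04 and 32.9 CPM in siDEPDC1, against 30.1, 28.5 and 28.6 CPM in siCTL (0.21 ± 0.073, edgeR adjusted p = 0.025). That call was lost without siDEPDC1 replicate 3 (edgeR adjusted p = 0.058), siCTL replicate 2 (0.10) or siCTL replicate 3 (0.069). Its paralog FBXW11 (-0.024) and the scaffold CUL1 (0.014) did not pass.

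CKS1B and CKS2 encode small proteins that bind cyclin-dependent kinases, and CKS1B is also a cofactor of SKP2. CKS2 rose to 98.1, 106, 103 and 94.4 CPM in siDEPDC1, against 73.4, 85.2 and 78.7 CPM in siCTL (0.34 ± 0.063, edgeR adjusted p = 5.3e-05). CKS1B rose to 98.4, 116, 116 and 103 CPM in siDEPDC1, against 93.0, 92.9 and 93.4 CPM in siCTL (0.22 ± 0.062, edgeR adjusted p = 0.0064). Both were without overlap. CKS1B shares its name with 6 annotated pseudogenes and UBE2C with 4, and the counting may have split their reads.

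Ratios within a library do not depend on how libraries are scaled, and 8 pairs of paralogs or partners were compared this way. ENSA over ARPP19 had log2 count ratios of -0.011, 0.068, 0.16 and 0.28 in siDEPDC1, against -0.14, -0.28 and -0.45 in siCTL. The difference was 0.41, or 1.33-fold, with no overlap. BTRC over FBXW11 had -1.57, -1.62, -1.54 and -1.64 in siDEPDC1, against -1.83, -1.77 and -1.88 in siCTL, a difference of 0.24 (1.18-fold) with no overlap. Both reached 0.0286 in an exact two-sided permutation test, the smallest p that 4 against 3 libraries allow, but not the threshold after adjustment over the 8 pairs (adjusted permutation p = 0.114). The other 6 pairs overlapped between groups, with exact permutation p from 0.0857 to 0.914. Their differences were 0.0086 for CDC20 over FZR1, -0.038 for UBE2C over UBE2S, 0.026 for AURKA over TPX2, 0.14 for WEE1 over PKMYT1, -0.20 for CDC25B over CDC25C and -0.13 for CKS1B over CKS2.

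**Figure D4:**
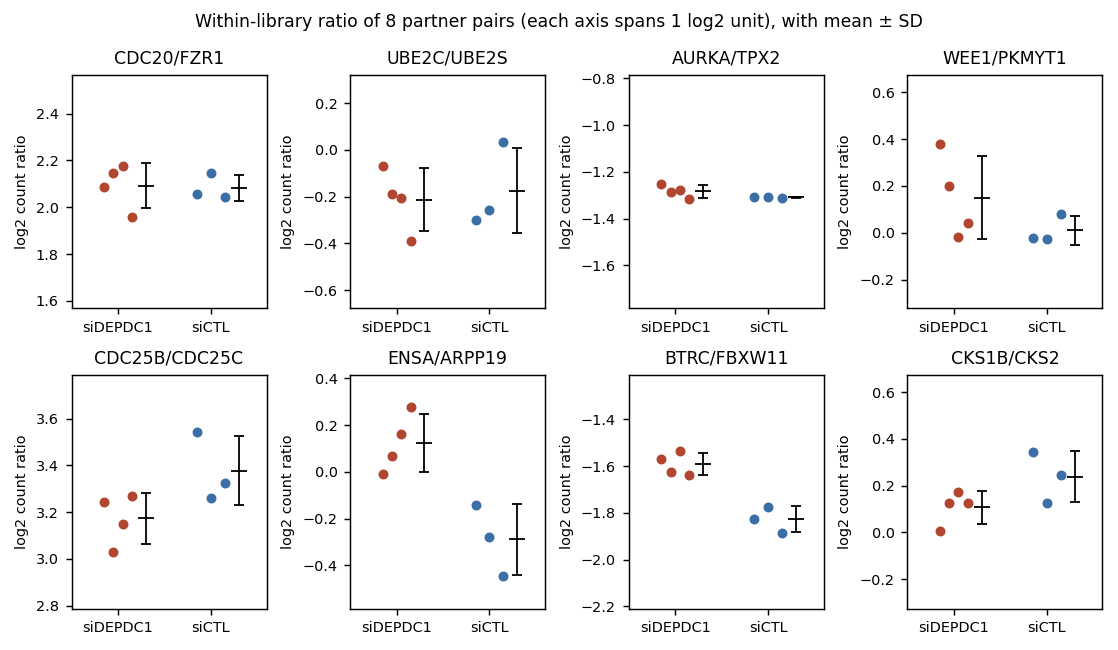
Log2 ratio of counts of 8 gene pairs within each siDEPDC1 library (red) and siCTL library (blue), with mean ± SD; each axis spans 1 log2 unit. The groups separate for ENSA over ARPP19 and BTRC over FBXW11 and overlap for the other 6 pairs.

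The 7 letters GATAACT, a word picked in an earlier analysis of these same libraries from genes that fell most, are present in the 3' UTR of 7.7% of 12321 searched genes and of 3 of the 41 genes, a share near that background. These are ARPP19 and BORA, which fell, and ANAPC7, which did not pass. The sites are given on the transcript strand from GENCODE 29 (GRCh38), with the word in capitals.
ARPP19 (chr15:52547999-52548025, minus strand): acttctgagtGATAACTaaagcagttt
BORA (chr13:72755753-72755779, plus strand): tagttccagtGATAACTgttctagtta
ANAPC7 (chr12:110372914-110372940, minus strand): cagaacatctGATAACTgcaatttaaa
The ANAPC7 copy begins at base 1214 of a 3' UTR of 1244 bases, next to the transcript's end. BORA has a further copy in its coding sequence, and CDC20 and CDC25C have coding copies only. ANAPC4, ANAPC11, ANAPC13, CDC16, FBXW7 and SKP2 fell without a copy in the transcript searched. ENSA, the paralog of ARPP19, did not pass and has none. BTRC, which rose, and its paralog FBXW11, which did not pass, have none either. Of the further pathway genes described below, CKAP2, which fell, and MAD2L1 and SKP1, which did not pass, carry the word in the 3' UTR. Whether these sites have a part in the changes was not tested.

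Of 57 further listed genes of the same pathways 56 were tested, and 24 were higher and 9 lower (58.9% called, beside 34.4% of all tested genes). Their log2 fold changes ran from -0.68 to 0.61, a wider range than that of the 41. NUSAP1 was at 0.54 CPM in siDEPDC1 and 0.48 CPM in siCTL and was not tested. It shares 1787 exonic bases with AC087721.2 on its own strand. Counting may have lost or split reads there, so these values need not show its level. Among 21 tested APC/C substrates 15 were higher and 2 lower (81% called), with a median log2 fold change of 0.21. Of all tested genes 16.5% were higher and 17.9% lower. The 3 with the smallest adjusted p were the securin gene PTTG1 (0.61), the replication licensing inhibitor GMNN (-0.68) and the spindle protein DLGAP5 (0.56), with edgeR adjusted p of 1.3e-10, 7.7e-10 and 1.7e-09. GMNN was at 43.5, 42.9, 40.1 and 37.4 CPM in siDEPDC1, against 62.8, 66.9 and 67.2 CPM in siCTL, and so moved against PTTG1. Of the 15 higher substrates, SGO1, ANLN and ECT2 lost the call without siDEPDC1 replicate 2 or without siCTL replicates 1 or 2. SGO1 and ANLN also lost it without siDEPDC1 replicate 3. SGO1 further lost it without siDEPDC1 replicate 1, with DESeq2 (adjusted p = 0.086) and with no count filter (edgeR adjusted p = 0.051). SGO1, ANLN and ECT2 were picked after their values were seen.

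Of 8 genes of the mitotic checkpoint, which acts on CDC20, 4 were higher (50% called, beside 34.4% of all tested genes). The other 4 did not pass, with log2 fold changes from 0.060 to 0.16. BUB1B, which binds CDC20 directly, rose by 0.38, and the kinases BUB1 and TTK by 0.25 and 0.27. MAD1L1, which recruits MAD2 to kinetochores, was the fourth (0.47 ± 0.17, edgeR adjusted p = 0.032). Its call was lost with DESeq2 (adjusted p = 0.12), with no count filter (edgeR adjusted p = 0.055), and without siDEPDC1 replicate 2 (0.18), siCTL replicate 1 (0.18) or siCTL replicate 3 (0.053). Among 13 other mitotic kinases 4 were higher and 5 lower (69.2% called). NEK9, a kinase upstream of NEK6 and NEK7, was at -0.32, NEK6 at -0.20 and NEK7 at -0.26 (edgeR adjusted p = 0.00017, 0.0092 and 0.0036). PLK2 and PLK3 of the same list were higher, at 0.21 and 0.32 (edgeR adjusted p = 0.0024 and 0.0036). BUB1 and TTK stand in this list and in that of the checkpoint. CDK1, the kinase at the centre of this network, was at -0.18 ± 0.064 (edgeR adjusted p = 0.025). That call was lost with library size alone (edgeR adjusted p = 0.068), without siDEPDC1 replicate 4, where the log2 fold change was -0.11 (0.12), and without siCTL replicate 2 (0.096) or 3 (0.084). CCNB1, its cyclin partner and an APC/C substrate, was higher (0.40 ± 0.057, edgeR adjusted p = 8.7e-07). MAD1L1, NEK6, NEK7, PLK2, PLK3, CDK1 and CCNB1 were picked after their values were seen. Of 9 genes of the SCF core and neddylation 2 were higher (22.2% called, below the 34.4% of all tested genes), RBX1, the RING partner of CUL1 (0.30), and the modifier NEDD8 (0.29), which shares 488 exonic bases with the read-through gene NEDD8-MDP1. Of 8 subunits of PP2A and PP1, PPP1CC, a catalytic subunit of PP1, was higher (0.23), and the PP2A subunits PPP2R1B (-0.25) and PPP2CB (-0.23) were lower. That is 37.5% called, near the share of all tested genes. PPP2CB missed the threshold without siCTL replicate 1 (edgeR adjusted p = 0.053).

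**Figure D5:**
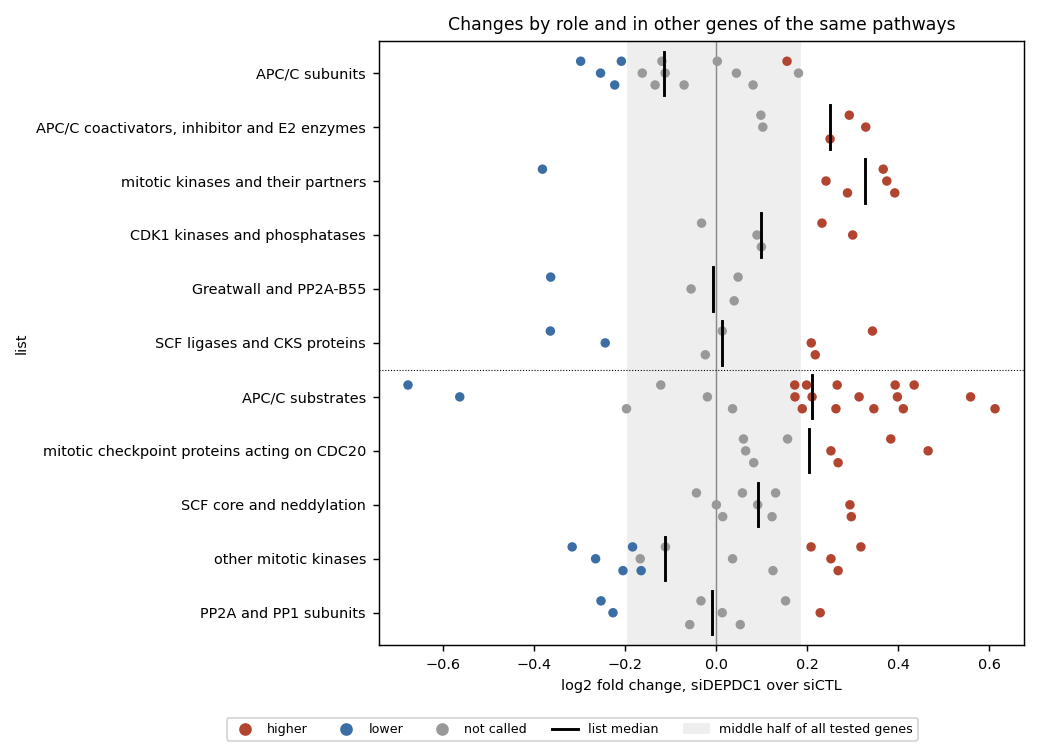
Log2 fold change (siDEPDC1 over siCTL) of every tested gene in the 6 role groups (above the dotted line) and in 5 lists of other genes of the same pathways, with list medians and, in grey, the quartiles of all tested genes (-0.19 to 0.18). The 6 mitotic kinases and partners (median 0.33) lie to the right of the grey band except BORA, while the medians of the APC/C subunits (-0.12) and of the 13 other mitotic kinases (-0.11) lie left of 0.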

How the data were processed

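The authors deposited raw counts per Ensembl gene for 7 libraries, 1 column each, as whole numbers. The submitters' processing notes name GRCh38, FastQC, STAR 2.7.9a and DESeq2 without saying what each was used for. Per the labels' protocols, TruSeq RNA kits were used, with paired reads of 100 bases. The counter, annotation release and strand setting are not stated there, which matters for genes that overlap others.

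Counts were filtered with filterByExpr by group and compared between groups by the quasi-likelihood test of edgeR 4.0.16 under R 4.3.3 (TMM scaling, glmQLFit with robust estimation, glmQLFTest, two-sided, Benjamini-Hochberg over all 16583 tested genes). The fit was checked on simulated counts. Standard errors (SE) were taken as the absolute log2 fold change over the root of F. Partner ratios used counts plus 0.5. Alternatives were DESeq2 1.42.0, limma-voom (limma 3.58.1), other scalings and filters, a replicate block, and each library left out in turn. No 2 replicates agreed within sampling noise. Annotation came from GENCODE 29, which holds 58444 of the table's identifiers, and promoters from RefSeq. Genes and lists were chosen with earlier results of these data known. Per-library values are given for genes past the threshold with an absolute log2 fold change of at least 0.2, and for CDC20, FZR1 and DEPDC1. From each further list up to 3 called genes with the smallest adjusted p are named, besides those that the text marks as picked after their values were seen and the carriers of GATAACT.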

Additional observations from a re-analysis of the deposited data

Results flagged for a closer look

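Each of 49 sets of 4 siDEPDC1 values (CPM of the 41 genes and 8 partner ratios) was searched for 1 library lying apart from its 3 fellows, and 2 sets stood out, where chance alone picks about 1 in 20. In siDEPDC1 replicate 4, ANAPC11 was at 56.8 CPM while the other 3 libraries lay between 49.2 and 49.4 CPM, so that the gap was 0.975 of the whole range. PPP2R2A was at 65.8 CPM in siDEPDC1 replicate 4 while the other 3 lay between 74.0 and 75.1 CPM, a gap of 0.882 of the range. Groups of 3 libraries were not examined.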

How the results depend on the processing

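No gene among the 41 that passed the test changed direction under the 15 alternatives, and 14 of the 22 called genes passed in every one: CDC16, FBXO5, UBE2C, PLK1, AURKA, TPX2, BORA, NEK2, GTSE1, WEE1, ARPP19, FBXW7, CKS1B and CKS2. Among the 15, the fit of the 6 libraries numbered 1 to 3 without a block repeats that without siDEPDC1 replicate 4. With 1 library left out, 12 to 17 genes were higher and 6 to 9 lower, where 27.4 to 37.1% of all tested genes were called. Replicate numbers are shared by the groups, but same-numbered libraries did not deviate together (correlations of -0.085, -0.0059 and -0.058). These values gave no sign of a pairing, but so few correlations cannot exclude one. With a replicate block on numbers 1 to 3 (6 libraries), 13 genes were higher and 5 lower, against 13 and 6 in the same 6 libraries without the block. Of all tested genes, 28.5% were called with the block and 32.5% without it. DESeq2 gave 13 higher and 7 lower, limma-voom 14 and 8, no count filter 12 and 8, and library size alone 14 and 7. In the same order, these settings called 27.1, 34.4, 14.9 and 35.1% of all tested genes. Outside the replicate left-out fits, calls were lost for ANAPC13 with library size alone or DESeq2, for ANAPC5 and BTRC with no count filter, and for BTRC with DESeq2. ANAPC4, ANAPC5, ANAPC13 and SKP2 lost theirs under the block, as did CDK1 among the further genes (adjusted p = 0.20), and ANAPC4, ANAPC13 and UBE2S in the same 6 libraries without it, which lack siDEPDC1 replicate 4. The cause was not tested. With library size alone, 3247 genes of the whole table were higher and 2581 lower, and the median over all genes moved to 0.031. No partner ratio passed after adjustment, with or without the added 0.5 count. That change is too small to test them, as the lowest count of their genes was 245 (CDC25C). With 1 library left out the permutation test cannot pass, so only directions were read there. Small changes in the lowest genes (ANAPC10, CDC26) are limited by depth, at 63 and 66 counts in their shallowest library, besides the overlaps given above.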
